A study of Rattus rattus with 18 samples.

Results

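The genes described here stood higher in the arcuate nucleus (ARC) of rats on a high-fat diet without a running wheel than in any of the chow sedentary rats and any high-fat rat with a wheel of the same experiment. They were chosen by their measured values, by a rule on the 10 libraries of the diet-induced obesity (DIO) and running experiment. A gene was kept when its mean level in high-fat sedentary (HFS) libraries was at least 5 CPM (counts divided by the sum over all genes of that library and multiplied by 1e+06) and when each HFS library was above every chow sedentary (CS) and every high-fat running (HFR) library. Of the 32883 genes in the files, 9532 reached the floor of 5 CPM, and 78 of them met the ordering. *Timp1*, *Cd74*, *Mt2A* and *Hspb1* were left out by name, of which *Timp1* met the ordering, and 77 members remained. The 78 genes are 0.818% of the genes over the floor, and every HFS library was below every other library for 71 genes.

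RNA of ARC punches from female Wistar rats was measured in 18 libraries. In the DIO experiment, 3 CS rats on chow, 3 HFS rats and 4 HFR rats on a diet with 60% fat had their diet from postnatal day 21, were housed alone from day 90 for 4 weeks, and the HFR cages held a wheel that the rats could use at will, so the amount of running differed from rat to rat. In the miR-211 experiment, chow-fed rats that had arrived at postnatal day 60 were infused into the third ventricle after an overnight fast, 4 of them with MiRIDIAN hsa-miR-211-mimic and 4 with MiRIDIAN hsa-miR-211-hairpin inhibitor, and were killed 6 hours later. The study's methods state that the DIO experiment was repeated, and the labels do not give the run that each rat came from. The chow running and negative control groups are not analysed here, so mimic and inhibitor are compared only with each other. The labels give *Rattus rattus* as the organism, and the study's methods give Wistar rats, a strain of *Rattus norvegicus*, aligned to the rat genome Rnor6.

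The ARC lies at the base of the hypothalamus beside the third ventricle and holds the neurons that sense hormones of energy balance, among them the *Pomc* neurons that restrain feeding. Its neurons lie among astrocytes, tanycytes, microglia, oligodendrocytes and vessels. A punch mixes all of these, so a higher level in bulk RNA can come from more cells of a type or from more RNA per cell, which cannot be told apart here. A high-fat diet is known for activating microglia and astrocytes in this nucleus. *Pomc*, *Ghrh* and *Nkx2-1*, which mark the ARC and its region, had counts in all 18 libraries, but the levels differed widely. *Pomc* was at 841 to 1050 CPM in HFS, at 481, 871 and 170 in CS, at 182, 917, 1053 and 884 in HFR, at 51.3 to 1032 with mimic and at 225 to 592 with inhibitor. CS 3, HFR 1 and mimic 3 were the lowest of their groups, and the HFS libraries were alike. *Ghrh* ran from 11.99 CPM in mimic 3 to 124 in HFR 3. The part of punch content in the levels of the members was not tested.

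Depth and library identity bear on a rule built on ranks. Counts on genes were between 4680736 and 5634204 in CS, between 5769107 and 6373077 in HFS and between 4753472 and 7494207 in HFR, so that each HFS library was deeper than each CS library and than 3 of the 4 HFR libraries. The part of depth in the results was not tested. In the miR-211 experiment depth was between 1275263 and 3318751 with mimic and between 1559206 and 6615927 with inhibitor. Over 421 genes, 8 of the 10 DIO libraries matched 1 of the 14 per-animal columns of the study's list of diet genes, each a column of its own group, with an interquartile range of the log2 difference of 0.138 after each gene was centred. CS 2 and HFS 2 matched none. The nearest column to CS 2 was an HFS animal, at 0.406, and the nearest to HFS 2 was a chow runner, at 0.393, distances like those from a matched library to another animal's column, of which the smallest was 0.384. The group labels were kept, and the number of members and some of the gaps and ratios are also given without these libraries.

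Symbols were known for 20 of the 77 members, because the files hold Ensembl identifiers and names came only from the study's own lists of diet genes (14 members) and of miR-211 genes (6 members). These lists were chosen by the study largely on the same libraries, so a named member is more likely to differ in them than an unnamed one. The lists hold 18.2% and 7.79% of the members, against 4.11% and 1.51% of all genes over the floor. The other 57 members are described by counts.

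The ordering was met by narrow gaps. The ratio of the lowest HFS CPM to the highest CPM of the other 7 libraries had a median of 1.04 and ran from 1.00 to 1.29 over the members. It was at least 1.1 in 11 members and at least 1.2 in 2. Without CS 2 and HFS 2 it was at least 1.2 in 9, but leaving libraries out can only keep or widen this ratio. Exact 95% Poisson intervals cover counting error only. With all libraries, those of the lowest HFS and the highest other library were apart in 0 of the 77 members. The group means lay further apart, with a median ratio of HFS to CS of 1.40 (1.07 to 2.41) and of HFS to HFR of 1.41 (1.08 to 2.09). HFS was at least 1.5 times CS in 32 members and at least 1.5 times HFR in 25. Without CS 2 and HFS 2, the median ratios of the same members were 1.46 and 1.40, and HFS was at least 2 times CS in 14 members, against 6 with all libraries. CS 2 had the highest mean level of the members in CS, so leaving it out tends to raise the ratios to CS. These ratios were fixed in direction by the rule and are a description.

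Just inside the floor were *Rell1* with a mean HFS level of 5.73 CPM and members at 5.83 and 6.03 CPM, and just outside it were genes at 4.89, 4.74 and 3.25 CPM that met the ordering, of 55 such genes in all. Just inside the ordering were *Xpnpep1*, *Sgk1* and an unnamed member, whose lowest HFS library was 1.0002, 1.0006 and 1.002 times the highest other library. Just outside it were genes at 0.9990, 0.9988 and 0.9966. Members therefore border on many genes with nearly the same values.

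The number of genes was set beside that for every other choice of 3 of the 10 libraries, with the floor applied to the chosen libraries. Over all 120 choices the number of genes highest in the chosen libraries ran from 26 to 267, with a median of 71. For 52 choices it was above 78, for 65 it was below, and 2 other choices gave as many. The 3 CS libraries together gave 115 genes, and the highest choice was CS 1, CS 3 and HFR 3. With CS 2 in the place of HFS 2, the choice of CS 2, HFS 1 and HFS 3 gave 243 genes. The choices share libraries and are not independent, so the counts are given as a description. The count of the HFS group lay near the median of all choices. The number of members also moved with the libraries used. Fewer libraries impose fewer comparisons, and why the number differed from one left-out library to another was not tested. The number was 286 without HFS 2, 280 without HFS 3, 189 without HFS 1, 197 without CS 2, 118 without CS 1 and 129 without HFR 3. Without both CS 2 and HFS 2 it was 526, and no other pair was left out to set beside this number. The 77 members were among the genes each time, which the rule fixes except at the floor, since leaving libraries out only removes comparisons.

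**Figure D1:**
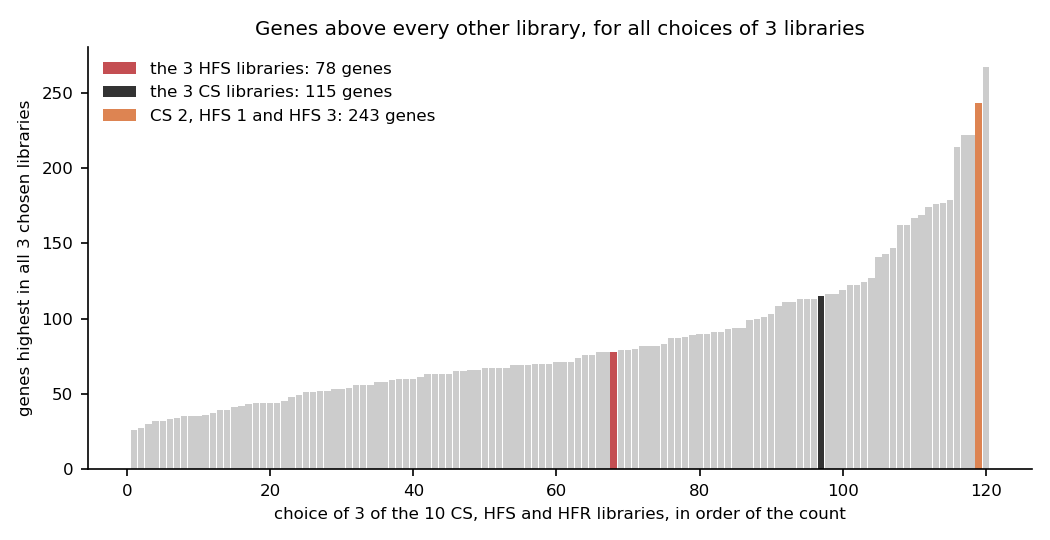
Number of genes (vertical axis) whose CPM was higher in all 3 chosen libraries than in the other 7, with a mean of at least 5 CPM in the chosen ones, for all 120 choices of 3 of the 10 CS, HFS and HFR libraries in order of the count. The 3 HFS libraries (78 genes) lie near the median of 71, below the 3 CS libraries (115) and CS 2 with HFS 1 and HFS 3 (243).

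Complement genes were among the named members. Complement is a cascade of plasma and tissue proteins that tag material for removal, and in brain its first component, C1q, is made mostly by microglia. *C3*, the component on which the pathways of complement meet, was at 33.8, 22.4 and 26.6 CPM in HFS, at 12.4, 20.4 and 11.96 in CS and at 10.1, 13.4, 13.5 and 15.9 in HFR. The mean in HFS was 27.6 ± 5.75 (SD, n = 3), which is 1.85 times that in CS and 2.09 times that in HFR, and CS 2 was the library nearest to HFS. Without CS 2 and HFS 2 it was 2.48 times CS and 2.28 times HFR.

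*C1qb*, a chain of C1q, was at 185, 162 and 158 CPM in HFS, at 106, 153 and 70.3 in CS and at 109, 116, 104 and 138 in HFR. *C1qc*, another chain of the same protein, was at 94.8, 74.5 and 76.4 CPM in HFS, at 46.0, 68.5 and 33.3 in CS and at 41.1, 44.9, 41.2 and 73.1 in HFR. In both genes CS 2 and HFR 4 were the libraries nearest to HFS. *C1qa*, the remaining chain, did not meet the ordering. Its levels were 158, 104 and 121 CPM in HFS, 103, 127 and 113 in CS and 101, 92.4, 114 and 122 in HFR, so the groups overlapped. The microglial adaptor gene *Tyrobp* also did not meet it, with 83.2, 52.3 and 85.2 CPM in HFS and 45.1 to 75.1 CPM in CS and HFR.

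Of the 12 microglial markers, 4 had an identifier, of which 0 were at 0 in any library. The sum of these 4, *C1qb* and *C1qc* included, was 393 to 522 CPM in HFS, 276 to 423 in CS and 298 to 395 in HFR. Of the 17 complement genes, 8 had an identifier and 3 were members. The sum of these 8 was 3071 to 4035 CPM in HFS, 2573 to 3979 in CS and 2654 to 4494 in HFR, so the groups overlapped. Under 80% of both lists had an identifier, so nothing is said of either list as a whole. Of the 10 astrocyte markers 2 had an identifier, *Gfap* and *Gjb6*, and their sum was 1164 to 2799 CPM in HFS (median 2069), 544 to 1508 in CS (median 618) and 462 to 1801 in HFR (median 1440). The 4 of 16 arcuate neuropeptides with an identifier summed to 1060 to 1250 CPM in HFS, 387 to 1103 in CS and 381 to 1314 in HFR. In the astrocyte and neuropeptide sums the HFS range overlapped those of CS and HFR, and the part of these cells in the levels of the members was not tested.

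Matrix and protease genes formed another group of named members. *Mmp2*, a secreted gelatinase that cleaves basement membrane collagen, was at 15.3, 12.2 and 13.1 CPM in HFS, at 6.40, 10.8 and 6.62 in CS and at 5.57, 8.20, 4.21 and 10.3 in HFR. *Mmp23*, a membrane-anchored metalloproteinase, was at 10.04 to 15.3 CPM in HFS, 3.85 to 9.94 in CS and 6.40 to 8.84 in HFR. *Plod1*, which hydroxylates lysines of collagen, was at 61.8 to 78.2 CPM in HFS, 41.4 to 53.8 in CS and 47.9 to 57.6 in HFR. In *Mmp2* and *Mmp23* the library nearest to HFS was CS 2, and in *Plod1* it was HFR 4.

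Of the 25 matrix genes listed, 13 had an identifier and only *Mmp2* was a member. The summed level of the 13 was 653 to 967 CPM in HFS, 376 to 948 in CS and 331 to 685 in HFR. The CS value of 948 was the highest of the 3 CS libraries, against a median of 425. The HFS libraries thus did not lie above all others in the sum of these matrix genes.

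*Klk6*, a secreted serine protease that is abundant in oligodendrocytes, was at 247, 172 and 173 CPM in HFS, at 69.4, 152 and 71.6 in CS and at 145, 97.97, 126 and 168 in HFR. Its mean in HFS was 197 ± 43.2 (SD, n = 3), or 2.02 times CS and 1.47 times HFR, and without CS 2 and HFS 2 it was 2.98 and 1.56 times. HFR 4 and CS 2 came close to the HFS libraries. *Mbp*, the only oligodendrocyte marker of 8 with an identifier, was at 11610 to 17805 CPM in HFS, 7768 to 11996 in CS and 10305 to 14185 in HFR. Its part in the level of *Klk6* was not tested. *Serpinb1a*, an inhibitor of neutrophil proteases, was at 10.8 to 14.9 CPM in HFS, 4.85 to 10.6 in CS and 4.63 to 10.01 in HFR.

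Lysosomal and endosomal genes were also among the named members. *Arsa*, the lysosomal sulfatase that breaks down the myelin lipid sulfatide, was at 65.9, 65.0 and 71.2 CPM in HFS, at 41.9 to 51.6 in CS and at 46.6 to 61.4 in HFR. *Snx17*, which returns receptors from endosomes to the cell surface, was at 159, 164 and 170 CPM in HFS, at 136, 135 and 120 in CS and at 152, 148, 146 and 142 in HFR. *Snx17* was 1 of 2 members in which every HFR library was also above every CS library, while 1 other member, the most abundant, had every HFR library below every CS library.

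*Litaf*, a protein of late endosome and lysosome membranes, was at 55.8 to 59.1 CPM in HFS, 34.0 to 49.3 in CS and 33.5 to 55.3 in HFR. *Scamp2*, a membrane protein of secretory and recycling vesicles, was at 42.7 to 54.6 CPM in HFS, 33.3 to 39.4 in CS and 35.6 to 40.1 in HFR. HFS means were between 1.12 and 1.40 times the CS or HFR means in these 4 genes. Of the 23 lysosome genes listed, 8 had an identifier and only *Arsa* was a member.

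Enzymes of metabolism made up a further group. *Cox4i2*, an alternative form of a subunit of cytochrome c oxidase, was at 8.67, 5.81 and 6.48 CPM in HFS, at 2.91, 4.08 and 1.71 in CS and at 3.58, 5.40, 4.00 and 3.603 in HFR. Its ratio of 2.41 between the HFS and CS means was the highest of the 77 members, on counts of 8 to 50 per DIO library. Without CS 2 and HFS 2 this ratio was 3.28. *Gstt3*, a glutathione transferase of the theta class, was at 399, 312 and 296 CPM in HFS, at 210, 259 and 220 in CS and at 270, 240, 280 and 238 in HFR.

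*A3galt2*, which adds a terminal galactose to a glycolipid, was at 8.15, 8.63 and 8.07 CPM in HFS, at 4.27, 5.68 and 4.27 in CS and at 2.19, 5.59, 4.00 and 6.27 in HFR. Its gap of 1.29 was the widest of the members with all libraries, and its counts were 47 to 55 in HFS and 11 to 47 elsewhere. Without CS 2 and HFS 2 the widest gap was that of *C3*, at 1.67, and leaving libraries out cannot narrow a gap. *Xpnpep1*, an aminopeptidase that removes the residue before a proline, was at 112, 104 and 112 CPM in HFS, 76.3 to 104 in CS and 94.1 to 104 in HFR. It was the member with the narrowest gap.

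Signalling and membrane proteins completed the named members. *Sgk1*, a kinase induced by glucocorticoids and regulated by insulin signalling, was at 103, 100.3 and 120 CPM in HFS, at 84.0, 55.7 and 30.6 in CS and at 98.2, 100.2, 61.2 and 71.4 in HFR. HFR 1 and HFR 2 were nearly as high as HFS in this gene, and the CS libraries were spread widely. *Vstm4*, a membrane protein with an immunoglobulin fold, was at 16.8, 16.3 and 15.7 CPM in HFS, at 7.37, 13.1 and 3.85 in CS and at 3.58, 7.82, 13.3 and 10.01 in HFR. *Rell1*, a relative of the tumour necrosis factor receptor RELT, was at 5.37 to 6.28 CPM in HFS, 2.99 to 4.85 in CS and 1.68 to 4.37 in HFR. *Ppp1r18*, which brings protein phosphatase 1 to actin filaments, was at 20.1 to 24.5 CPM in HFS, 10.3 to 19.0 in CS and 11.4 to 18.5 in HFR.

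**Figure D2:**
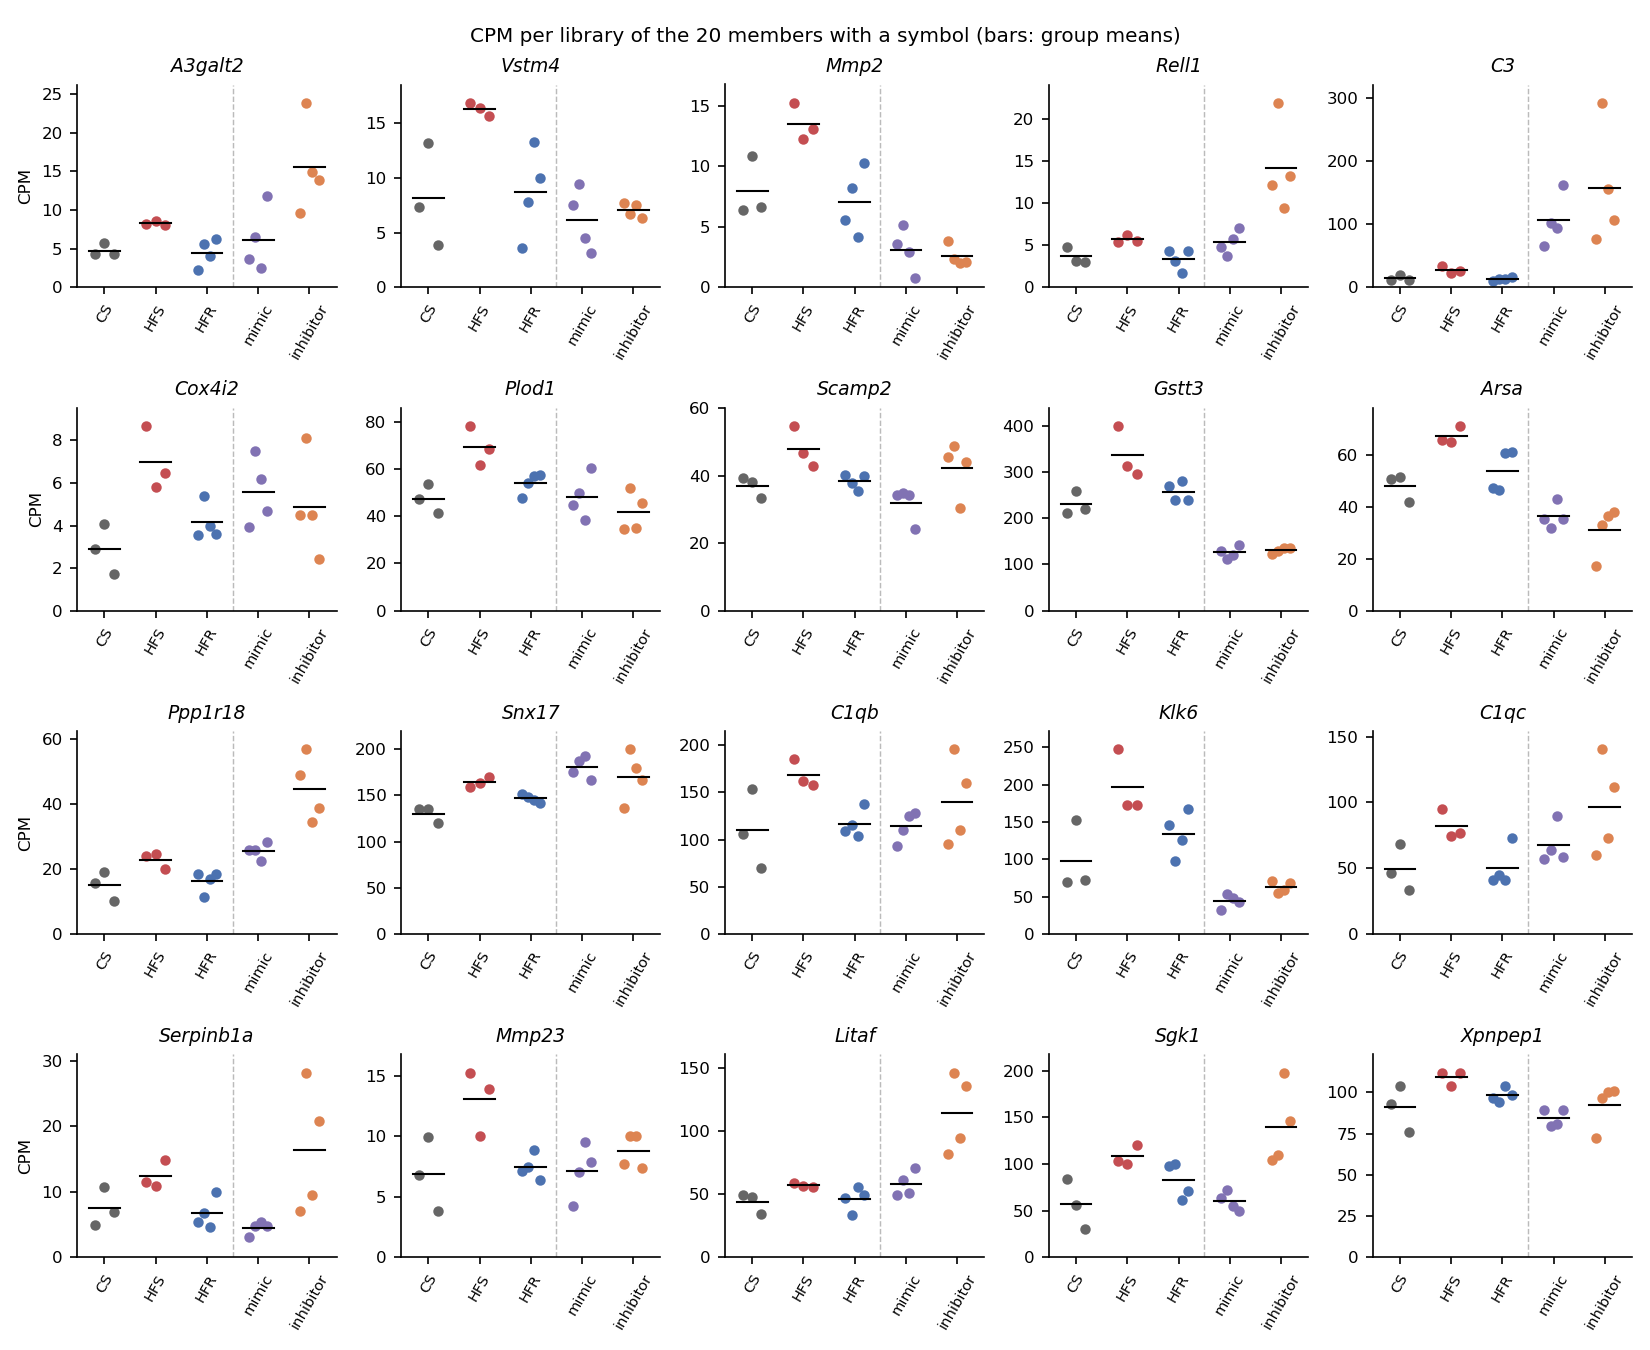
CPM per library (vertical axes, each from 0) of the 20 members with a symbol in the CS, HFS and HFR libraries left of the dashed line and the miR-211 mimic and inhibitor libraries right of it, with black bars for group means. Each HFS library lies above all CS and HFR libraries, as the rule requires, while *Sgk1*, *Litaf*, *Rell1*, *Ppp1r18*, *Serpinb1a* and, by a narrow gap, *Klk6* lie lower in every mimic library than in every inhibitor library.

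The 57 members without a symbol differed less between the groups than all 77 together. In HFS their mean log2 CPM stood 0.56, 0.54 and 0.51 above that of CS, and in HFR it stood between -0.03 and 0.19. The most abundant member, ENSRNOG00000016271, was at 1544 ± 23.0 CPM (SD, n = 3) in HFS, 1446 ± 31.9 in CS and 1298 ± 65.4 (SD, n = 4) in HFR. ENSRNOG00000028156, the other member with a gap of at least 1.2, was at 15.6 ± 0.57 CPM (SD, n = 3) in HFS, 11.5 ± 0.57 in CS and 9.33 ± 2.61 (SD, n = 4) in HFR.

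Over all 77 members, the mean log2 CPM relative to the CS mean was 0.63, 0.58 and 0.57 in HFS, -0.02, 0.17 and -0.15 in CS, and -0.02, 0.01, 0.01 and 0.24 in HFR. CS 2 and HFR 4 were the highest libraries of their groups, and the former was also the highest CS library in *C3*, *C1qb*, *C1qc*, *Klk6* and *Mmp2*. The members were less spread within HFS than genes in general, with a median coefficient of variation of 9.41% against 14.0% for all genes over the floor, which the rule favours. In CS it was 19.4% against 18.01%, and in HFR 18.4% against 17.1%. The highest library that was not HFS was CS 2 in 19 members, HFR 4 in 18 and HFR 3 in 12. HFS 1 was the highest library in 36 members, HFS 3 in 21 and HFS 2 in 20.

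**Figure D3:**
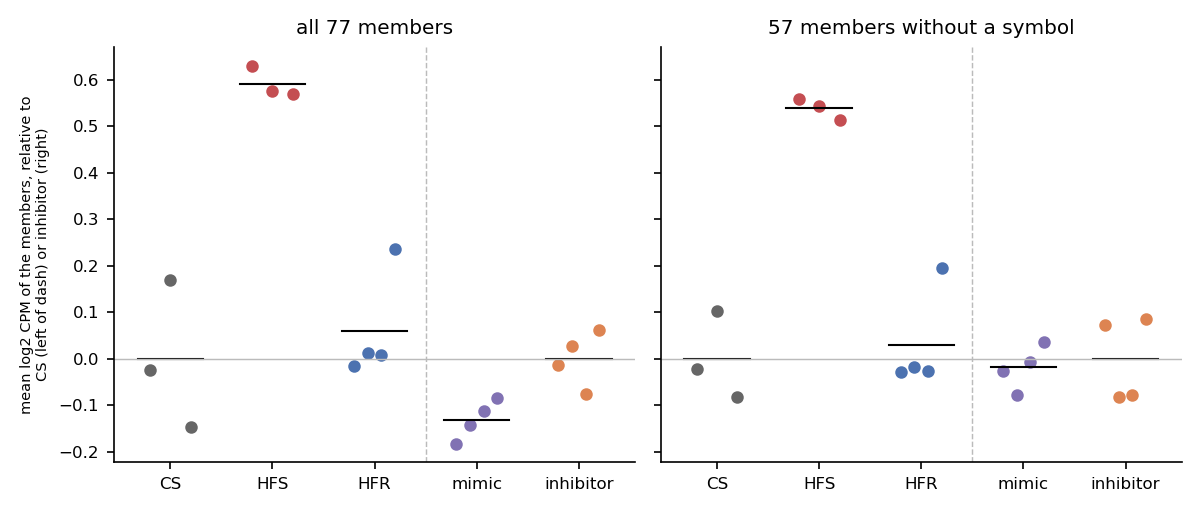
Mean log2 CPM per library over all 77 members (left panel) and over the 57 members without a symbol (right panel), relative to the CS mean for the DIO libraries and to the inhibitor mean for the miR-211 libraries, with a black bar for each group mean. HFS libraries lie at 0.57 to 0.63 in the left panel, as the rule requires, HFR 4 lies at 0.24 above the other HFR libraries, and the mimic libraries lie below the inhibitor libraries in the left panel and overlap them in the right panel.

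The fitted differences for the contrasts that the rule used, which share the HFS libraries, are given without reading anything from them. By edgeR's quasi-likelihood test with Benjamini-Hochberg adjustment over 11892 genes, at the study's threshold of an adjusted p under 0.1, 0 members were called between HFS and CS, where 0.00841% of all genes were called. Between HFS and HFR 0 members were called, and 0% of all genes. At an unadjusted p under 0.05, 40 and 36 members passed, against 4.47% and 4.24% of all genes, which the rule favours. DESeq2 also called 0 members in both. The study's diet list came from DESeq2 with more HFS rats than were used here, so these counts cannot be set beside that list.

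Where HFR lay relative to CS was not fixed by the rule, although the same libraries entered it. The HFR and CS ranges overlapped in 74 members. Every HFR library was above every CS library in 2 members, against 2.11% of all genes over the floor, and below in 1, against 2.91%. The mean in HFR was above that in CS in 42 members. The fitted log2 fold change was above 0 in 55.8% of the members, against 48.3% of all genes tested. The median log2 fold change of HFR over CS was 0.06 over the 77 members and -0.01 over all genes tested, and 0 members were called by edgeR, against 0.0168% of all genes. At an unadjusted p under 0.05 the count was also 0, against 4.28% of all genes, and DESeq2 called 0. Because the rule keeps both groups below the lowest HFS library, large differences between HFR and CS are selected against, and nothing is read from these counts. Without CS 2 the median was 0.16, without CS 3 it was 0.005, and without HFR 4 it was -0.004.

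The miR-211 libraries were not used by the rule, and here the members can be tested. MiR-211 mimic supplies extra copies of this microRNA, which lowers the level of transcripts it pairs with, and the hairpin inhibitor binds the rat's own miR-211. Of the 77 members, 69 passed edgeR's filter on low counts in these libraries, and 8, *Mmp2* and *Cox4i2* among them, did not. *Mmp2* was at 0.78 to 5.16 CPM with mimic and 2.00 to 3.85 with inhibitor, and *Cox4i2* at 3.92 to 7.51 and 2.42 to 8.11. No member was at 0 in any of the 18 libraries.

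By the same edgeR test over 9625 genes, at an adjusted p under 0.05, the filter stated with the study's list of miR-211 genes, 1 of the 69 members was called lower with mimic, against 0.436% of all genes, and 0 were called higher, against 0.0104%. The member called was *Sgk1*, which is in the study's miR-211 list. That list was chosen on these same 8 libraries, so the call of *Sgk1* is not independent evidence. At an unadjusted p under 0.05, 10 members were lower and 1 was higher, 15.9% of the members tested against 9.9% of all genes. Over all genes, 611 were lower and 342 higher. The median log2 fold change of mimic over inhibitor was -0.12 over the 69 members and 0.01 over all genes. Of the members, 40 were below 0 and 29 above, so 42.0% were above 0, against 51.55% of all genes. DESeq2 called 5 members, all lower with mimic, against 1.7% of all genes called lower, and all 5 were in the study's miR-211 list, which was chosen on these 8 libraries. The study's text gives a threshold of 0.01, at which edgeR called 0 members and 0.0104% of all genes lower.

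*Sgk1* was at 63.9, 72.3, 54.98 and 49.4 CPM with mimic and at 105, 110, 198 and 146 with inhibitor. The groups did not overlap. The log2 fold change was -1.21 ± 0.21 (SE), with an edgeR adjusted p of 0.0377. Over 15 alternatives it was between -1.32 and -0.99, lower with mimic in each, and 9 of them kept the call. The adjusted p ran from 3.16e-05 to 0.137. It was above 0.05 without any 1 of the 4 mimic libraries, without inhibitor 4, which was the deepest library, and with the replicate number as a block.

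The other members from the study's miR-211 list were also lower with mimic, which that list was chosen for by the study on these same 8 libraries, so their direction is not independent evidence. *Serpinb1a* was at 3.01, 4.69, 5.37 and 4.70 CPM with mimic and at 7.05, 28.1, 9.49 and 20.7 with inhibitor. Its log2 fold change was -1.93 ± 0.44 (SE), with an edgeR adjusted p of 0.104 and a DESeq2 adjusted p of 0.00829. *Litaf* was at 49.1, 61.5, 51.3 and 70.6 CPM with mimic and at 82.1, 146, 94.4 and 136 with inhibitor, a log2 fold change of -0.999 ± 0.20 (SE). In both genes the groups did not overlap, and the inhibitor libraries were more spread than the mimic libraries.

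*Rell1* was at 4.82, 3.76, 5.79 and 7.06 CPM with mimic and at 12.2, 21.9, 9.49 and 13.3 with inhibitor. *Ppp1r18* was at 25.9, 25.8, 22.3 and 28.2 CPM with mimic and at 48.7, 56.8, 34.5 and 38.7 with inhibitor. Again no mimic library reached an inhibitor library. *A3galt2* was at 3.62, 6.57, 2.48 and 11.8 CPM with mimic and at 9.62, 23.8, 15.0 and 13.9 with inhibitor, and its groups overlapped. The edgeR adjusted p was 0.0612 for *Litaf*, 0.104 for *Rell1* and *Ppp1r18* and 0.225 for *A3galt2*, and DESeq2 called the first 3 of these 4.

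Members from the study's diet list showed smaller values. *Klk6* was at 31.6, 54.0, 48.4 and 43.1 CPM with mimic and at 70.6, 54.4, 58.4 and 68.8 with inhibitor. Its groups did not overlap, by a narrow gap, and its log2 fold change of -0.51 ± 0.18 (SE) had an edgeR adjusted p of 0.333. The complement members were at log2 fold changes of -0.60 ± 0.46 (SE) for *C3*, -0.52 ± 0.26 for *C1qc* and -0.30 ± 0.22 for *C1qb*, none of them called, with overlapping groups. *C3* was at 65.4 to 163 CPM with mimic and at 77.6 to 293 with inhibitor. Over the 12 members of that list that were tested, the median log2 fold change was -0.22, with 9 below 0 and 3 above.

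The members with no known symbol did not share a direction. They leave out, by the way symbols were found, every member that the study's miR-211 list took from these 8 libraries. Their lack of a shared direction is therefore partly built in. Over the 51 that were tested the median log2 fold change was 0.01, with 26 above 0 and 25 below, 0 called by edgeR and 4 at an unadjusted p under 0.05, 3 of them lower with mimic. Over the 6 members of the miR-211 list the median was -1.32, with all 6 below 0. Over all members tested, every mimic library was below every inhibitor library in 7, against 3.74% of all genes, and above in 2, against 2.43%.

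**Figure D4:**
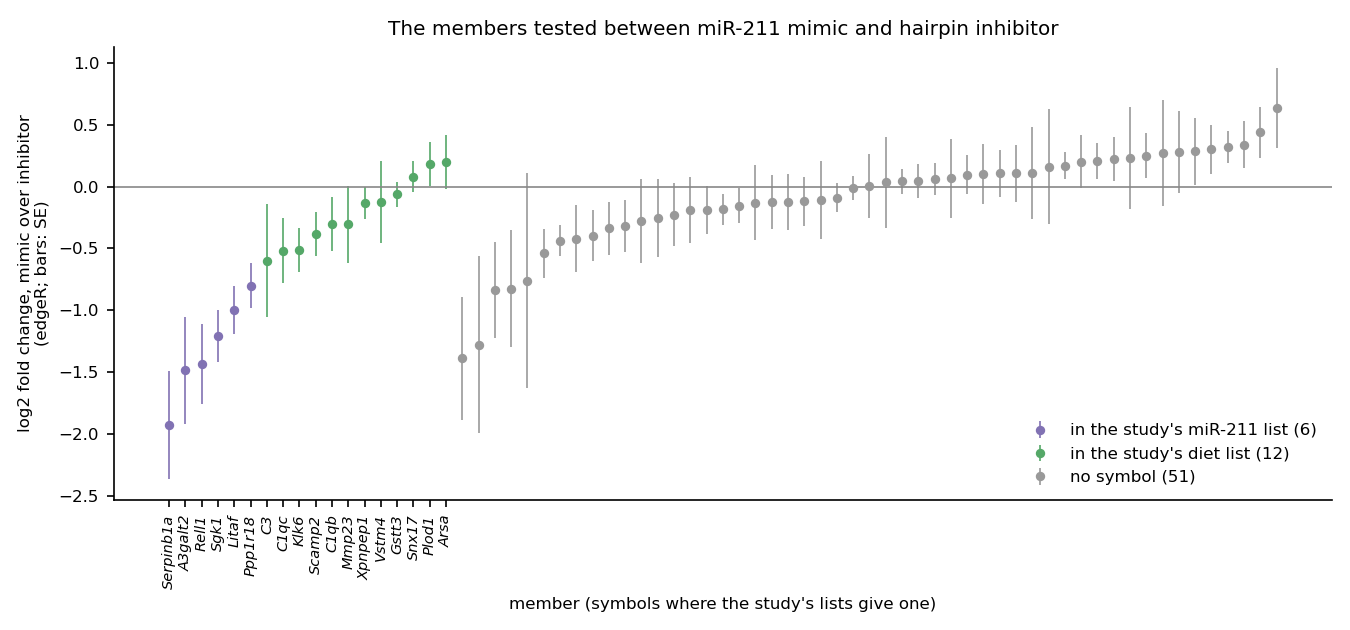
Log2 fold change of mimic over inhibitor from edgeR (vertical axis, bars are standard errors) for each of the 69 members tested, by whether the study's miR-211 list, its diet list or neither gave a symbol. The 6 members of the miR-211 list lie between -1.93 and -0.80, and the 51 members without a symbol lie on both sides of 0 with a median of 0.01.

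The mean log2 level of the 77 members relative to the inhibitor mean was -0.18, -0.14, -0.11 and -0.09 in the mimic libraries and -0.01, 0.03, -0.08 and 0.06 in the inhibitor libraries. For the 57 members without a symbol it was -0.03, -0.08, -0.01 and 0.04 with mimic and 0.07, -0.08, -0.08 and 0.09 with inhibitor. The groups did not overlap in the first and overlapped in the second, which leaves out the members of the study's miR-211 list.

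Of the 18 genes of an NF-kB and acute response list, 15 had an identifier, by way of the study's lists, and 0 were members. Their summed level was 553 to 1035 CPM with mimic, 1610 to 4112 with inhibitor and 268 to 446 in the DIO libraries, with 4 of the 15 listed at 0 in at least 1 library. Of the 13 tested, 4 were called lower with mimic and 0 higher, against 0.436% and 0.0104% of all genes, and since part of these identifiers come from genes the study chose on these libraries, the count is not independent evidence. The part of this response in the level of *Sgk1*, *Litaf* or *Serpinb1a* was not tested. The miR-211 rats also had cannula surgery, and their RNA was extracted with another kit. The summed levels of the miR-211 and DIO libraries therefore cannot be compared. For the other lists, under 80% of the genes had an identifier. The number of members in them was 1 of 22 glutathione and antioxidant genes, 1 of 18 respiratory chain genes and 0 in the lists of antigen presentation, interferon response, actin and S100 or annexin genes, heat shock and ER stress genes and arcuate neuropeptides.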

How the data were processed

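RNA-seq of the ARC from 18 rats was analysed. The authors made bulk MARS-seq libraries, which count transcript ends, trimmed adapters with Cutadapt, aligned with STAR 2.7.9a to Rnor6, removed PCR duplicates and counted reads with HTSeq 0.13.5 without use of strand. What they deposited are whole-number counts, not normalized, for 32883 Ensembl genes. The miR-211 counts were corrected for molecular identifiers, and for the DIO counts this is not given in the sources used here. Reads on no gene, 22.4% to 26.3% of the DIO reads, were left out of totals. So were reads that aligned to several places, 17.2% to 20.6%, and ambiguous reads. Reads on genes were 55.4% to 56.6% in HFS, 51.3% to 55.2% in CS and 54.5% to 58.4% in HFR. The part of these shares in the results was not tested. Without strand, antisense genes cannot be told apart, and reads shared by paralogs were not counted.

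CPM is the count divided by the sum over genes. Groups came from the labels. The members, the gene lists and the tests were chosen with earlier results of these data known. Replicates are separate rats per the study's methods. Tests used R 4.3.3, edgeR 4.0.16 (filterByExpr, TMM, robust quasi-likelihood, Benjamini-Hochberg) and DESeq2 1.42.0 as an alternative, and Python 3.11.15. The DIO model was fitted to 11892 genes in 10 libraries and that of the miR-211 experiment to 9625 genes in 8. Fold changes are log2 with the standard error of the fit. Mean log2 levels used a prior count of 2. No coordinates or sequences are given, because no rat reference with these identifiers was used here. The study's columns of fold changes and p-values were not used.

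Named members are those with a symbol that were among the 12 with the widest gap or the 12 with the highest HFS level, were called between mimic and inhibitor, stood in a gene list or stood next to a threshold. *Serpinb1a* and *Mmp23* were named after their values were seen. The marker lists of ependymal cells, perivascular macrophages, oligodendrocyte precursors, meningeal fibroblasts, choroid plexus, pituitary, red blood cells and T or B cells had 0 identifiers, and those of neurons, astrocytes, tanycytes, endothelial and mural cells had 1 to 4 and held 0 members. Alternatives were normalization by RLE or upper quartile, other filters on low counts, DESeq2, the replicate block, other thresholds and floors, thinned counts and each library left out. The threshold of 0.01 was added after seeing the data.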

Additional observations from a re-analysis of the deposited data

Results flagged for a closer look

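In groups of 4 libraries, a library was picked out when its gap to the nearest other library was a larger part of the group's range than Dixon's 95% critical value. Of 63 groups examined, 4 met this, and chance alone gives about 1 in 20. *Scamp2* was at 24.3 CPM in mimic 4, the shallowest library, against 34.3 to 34.7 in the other mimic libraries. *Xpnpep1* was at 72.5 CPM in inhibitor 1, against 96.3 to 101 in the other inhibitor libraries. *C1qc* was at 73.1 CPM in HFR 4, against 41.1 to 44.9 in the other HFR libraries. The mean log2 level of the members was 0.24 above the CS mean in HFR 4, against -0.02 to 0.01 in the other HFR libraries. HFR 4 was the deepest DIO library.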

How the results depend on the processing

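The number of members was 83 with TMM scaling, of which 68 were among the 77, and 72 with RLE scaling, of which 65 were. It was 89 and 64 with floors of 2 and 10 CPM, 2 when the lowest HFS library had to be 1.2 times the highest other library, 526 without both CS 2 and HFS 2, and 93 to 286 with each library left out in turn. Members called between mimic and inhibitor numbered 5 with no filter on low counts, 5 with DESeq2, 2 at an adjusted p under 0.1 and 0 at one under 0.01, and 0 to 3 with a library left out, 0 without any 1 mimic library or inhibitor 4 and 3 without inhibitor 1. The causes were not tested. The median log2 fold change was -0.029 with counts thinned to the smallest library and -0.136 to -0.0553 with a library left out. With a library left out, *Vstm4* was between -0.373 and 0.036, above 0 without mimic 3 (0.0019) or mimic 4, and *Snx17* was between -0.0083, without inhibitor 1, and 0.168. *Vstm4* and *Serpinb1a* have no value with thinned counts, where they did not pass the filter. For HFR against CS, 0 members were called under all 15 alternatives, and the median was between -0.004 and 0.16.

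Same-numbered libraries did not deviate together (r between 0.05 and 0.21 for mimic and inhibitor, between -0.12 and 0.15 for HFR and CS), so the numbers were not taken as pairs. With the replicate block, 1 member was called between mimic and inhibitor, *Litaf* at -0.96 in place of *Sgk1* at -1.17, the median was -0.11, and between HFR and CS 0 were called and the median was 0.01. Depth limits the low members: mimic 4 held a median of 29 counts per member.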
